A study of Homo sapiens with 8 samples.

Results

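Genes of the NF-kB pathway were followed in the Ago2-RIP-Chip data of ST486, a Burkitt lymphoma (BL) cell line. The members were 10 genes: the subunits NFKB1, NFKB2, RELA and REL, the inhibitors NFKBIA and NFKBIE, the restraints TNFAIP3, CYLD and TRAF3, and the kinase IKBKE. A probe was taken as a member when the RefSeq accession on the array mapped to one of these symbols. This gave 11 probes for 9 of the 10 genes, out of 41000 probes that covered 16557 named genes. No probe accession mapped to RELA, which is not analysed here.

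ST486 cells were transduced with the retroviral vector MXW-PGK-IRES-GFP, either empty (EV-ST486) or carrying miR-155 (miR-155-ST486), and the GFP+ cells were sorted. From each population RNA was taken from the total (T) cell lysate and from the Ago2 immunoprecipitated (IP) fraction, which gave 4 RNA samples, 1 per condition. Each RNA was labelled once with Cy3 and once with Cy5, and the total and IP RNA of one population were hybridised together on 4 two-colour arrays, which hold 8 signals per probe. Labellings repeat the measurement of one RNA and are not biological replicates, so no test was possible and their spread is given as the labelling error.

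NF-kB dimers are held in the cytoplasm by IkB proteins. IKK kinases mark the IkB proteins for degradation, after which the dimers enter the nucleus and switch on genes for survival and inflammation, among them the genes for several of their own inhibitors. Ubiquitin-editing enzymes and TRAF3 keep the kinases in check, and loss of these restraints is common in B-cell lymphoma. Transcripts loaded with miRNAs are held by Ago2, so the ratio of the IP to the total signal (IP/T ratio) measures how far a transcript was enriched in the Ago2-IP fraction. An IgG control precipitate was not analysed here, so RNA held by the beads alone is part of the IP signal.

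The miR-155 insert was the precursor with its flanks, and the main mature product, hsa-miR-155-5p, is encoded at chr21:25573983-25574006 (plus strand, GRCh38.p14, RefSeq). It is shown because its seed pairs with target transcripts, with its seed (bases 2 to 8) in capitals, together with the site that pairs with the seed, whose last base is the A opposite the first base of the miRNA:
hsa-miR-155-5p: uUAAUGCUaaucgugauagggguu
seed site in a target: AGCAUUAA
Transcript sequences were not used here, so the members were not searched for this site.

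The promoters of several members carry the NF-kB motif themselves. Promoter sequences of 300 bases (250 before the annotated start and 50 after it) were listed for 9 of the 10 genes, NFKBIE being the exception. The kappaB consensus motif of 10 bases, searched on both strands and counting overlapping matches at each start, was present for 7 of these 9 genes and in 60.0% of their 15 promoters, against 11.3% of all 35116 promoters. Among the other genes of the pathway, described below, it was in 22.9% of 83 promoters (16 of 52 genes). The windows below hold 30 bases of the gene strand around the match, which is in capitals, for the subunit NFKB1 and for the feedback inhibitors NFKBIA and TNFAIP3. They lie at chr4:102501300-102501329 (plus strand), at chr14:35404811-35404840 (minus strand) and, for the TNFAIP3 pair, at chr6:137867182-137867211 and chr6:137867194-137867223 (plus strand), all on GRCh38.p14.
NFKB1: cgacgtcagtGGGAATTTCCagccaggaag
NFKBIA: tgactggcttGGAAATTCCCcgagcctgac
TNFAIP3, upstream match: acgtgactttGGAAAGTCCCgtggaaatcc
TNFAIP3, downstream match: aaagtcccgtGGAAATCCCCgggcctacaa
The matches begin 49 bases before the start for NFKB1, 81 bases for NFKBIA, and 67 and 55 bases for TNFAIP3. A match describes the letters only, and binding to these windows was not measured.

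Probes were kept when they were well above background in at least 4 of the 8 channels and when the Cy3 and Cy5 signals of every RNA were within 2-fold. This left 15529 probes, and 14094 to 22161 probes were well above background in a single channel. The B cell markers MS4A1, CD79A, CD79B and CD22 and the germinal centre marker MME were detected in at least 4 channels, while PAX5 was detected in no channel. All 3 T cell markers were at 0 channels, and so were the myeloid markers LYZ and CSF1R, whereas CD14 was detected in 5 channels. The arrays of EV-ST486 were on one slide and those of miR-155-ST486 on another, so slide and vector cannot be told apart in any comparison of the populations, whereas IP and total RNA of one population shared their arrays. Of the 11 member probes 4 passed both filters, namely those of NFKBIA, NFKBIE and TNFAIP3 and 1 of the 2 CYLD probes.

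The signals of the NFKB1 probe were within a narrow band except on 1 array. NFKB1 encodes p105, the precursor of the p50 subunit. Its normalised signal was 1317 (Cy3) and 6076 (Cy5) in the total fraction and 4507 (Cy3) and 1225 (Cy5) in the IP fraction of EV-ST486. In miR-155-ST486 it was 1575 and 1610 in the total fraction and 1441 and 1470 in the IP fraction. The signals of 6076 and 4507 came from the same EV array and stood apart from the other 6, which lay between 1225 and 1610.

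This probe was printed in 10 spots, so the array could be examined spot by spot. On the EV array with total RNA in Cy5, 1 of the 10 spots read 40494 in the total channel and 29480 in the IP channel, and was marked as non-uniform by the scanner software. The 8 spots of that array without any flag read 1142 to 1380 in the total channel and 1088 to 1174 in the IP channel. With flagged spots left out the NFKB1 signals in EV-ST486 were 1316 and 1438 in the total fraction and 1296 and 1227 in the IP fraction, and the probe passed both filters.

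**Figure D1:**
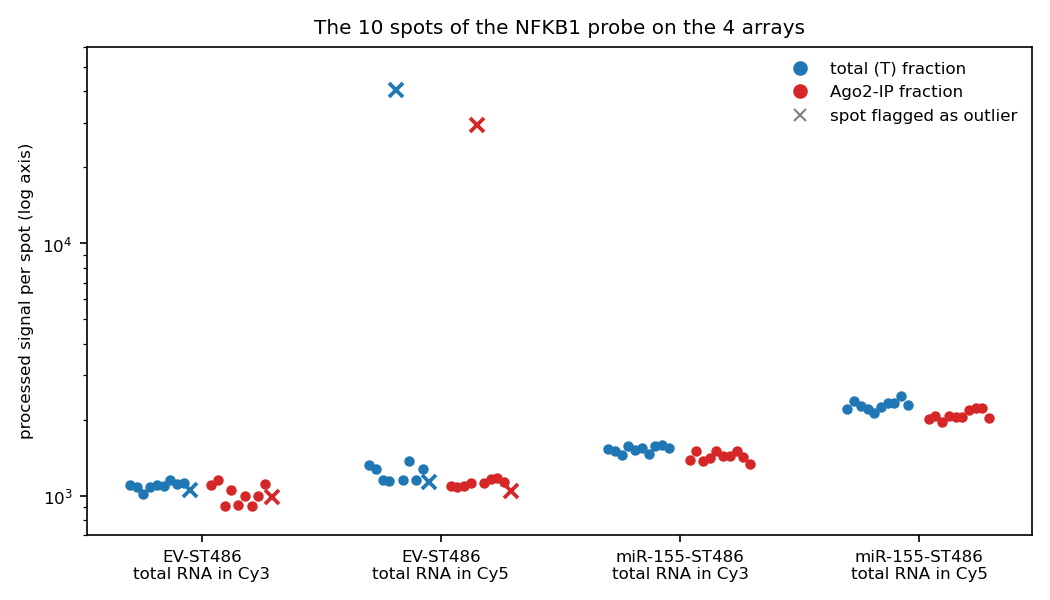
Processed signal of each of the 10 NFKB1 spots (log axis) on the 4 arrays, in the total and the IP channel. Crosses mark spots flagged as outliers, and 1 flagged spot on the EV array with total RNA in Cy5 lies far above the others, at 40494 and 29480.

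Enrichment of NFKB1 in the Ago2-IP fraction was not seen in either population. On the array with total RNA in Cy3 the spots without a flag gave a mean log2 IP/T of -0.12 ± 0.14 (SD over 9 spots) in EV-ST486 and of -0.10 ± 0.07 (SD over 10 spots) in miR-155-ST486. On the array with total RNA in Cy5 these values were -0.15 ± 0.12 (8 spots) and -0.16 ± 0.05 (10 spots). The populations differed by less than the spread between spots, which is technical. Without the flagged spots the IP/T ratio of NFKB1 was 0.917 for EV-ST486 cells and 0.914 for miR-155-ST486 cells, against medians of 0.900 and 0.882 over all kept probes. With them the EV ratio was 0.831, and the ratio of the total signals (miR-155-ST486 over EV-ST486) was 0.563 instead of 1.16, so that 1 spot turned the direction of the total difference.

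NFKB2 and REL were close to the background. NFKB2 encodes p100, the precursor of p52 in the noncanonical branch. Its probe read 72.7 (Cy3) and 23.0 (Cy5) in the total and 59.7 and 35.8 in the IP fraction of EV-ST486, and 74.1 and 59.1 in the total and 66.5 and 65.7 in the IP fraction of miR-155-ST486. It was well above background in 5 channels, and the IP/T ratios of the 2 EV arrays, 0.493 and 2.60, lay on opposite sides of 1. In miR-155-ST486 the ratios were 0.887 and 1.13. REL, the c-Rel subunit that lymphocytes favour, read 72.6 and 16.8 in the total and 54.2 and 16.7 in the IP fraction of EV-ST486. Its signals in miR-155-ST486 were 71.7 and 56.5 in the total and 65.2 and 30.3 in the IP fraction. It was also detected in 5 channels, with IP/T ratios of 0.230 and 3.23 in EV-ST486 and of 0.423 and 1.16 in miR-155-ST486. For both genes the labellings spanned more than the 2-fold limit, and a direction of IP/T could not be given at this signal level.

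**Figure D2:**
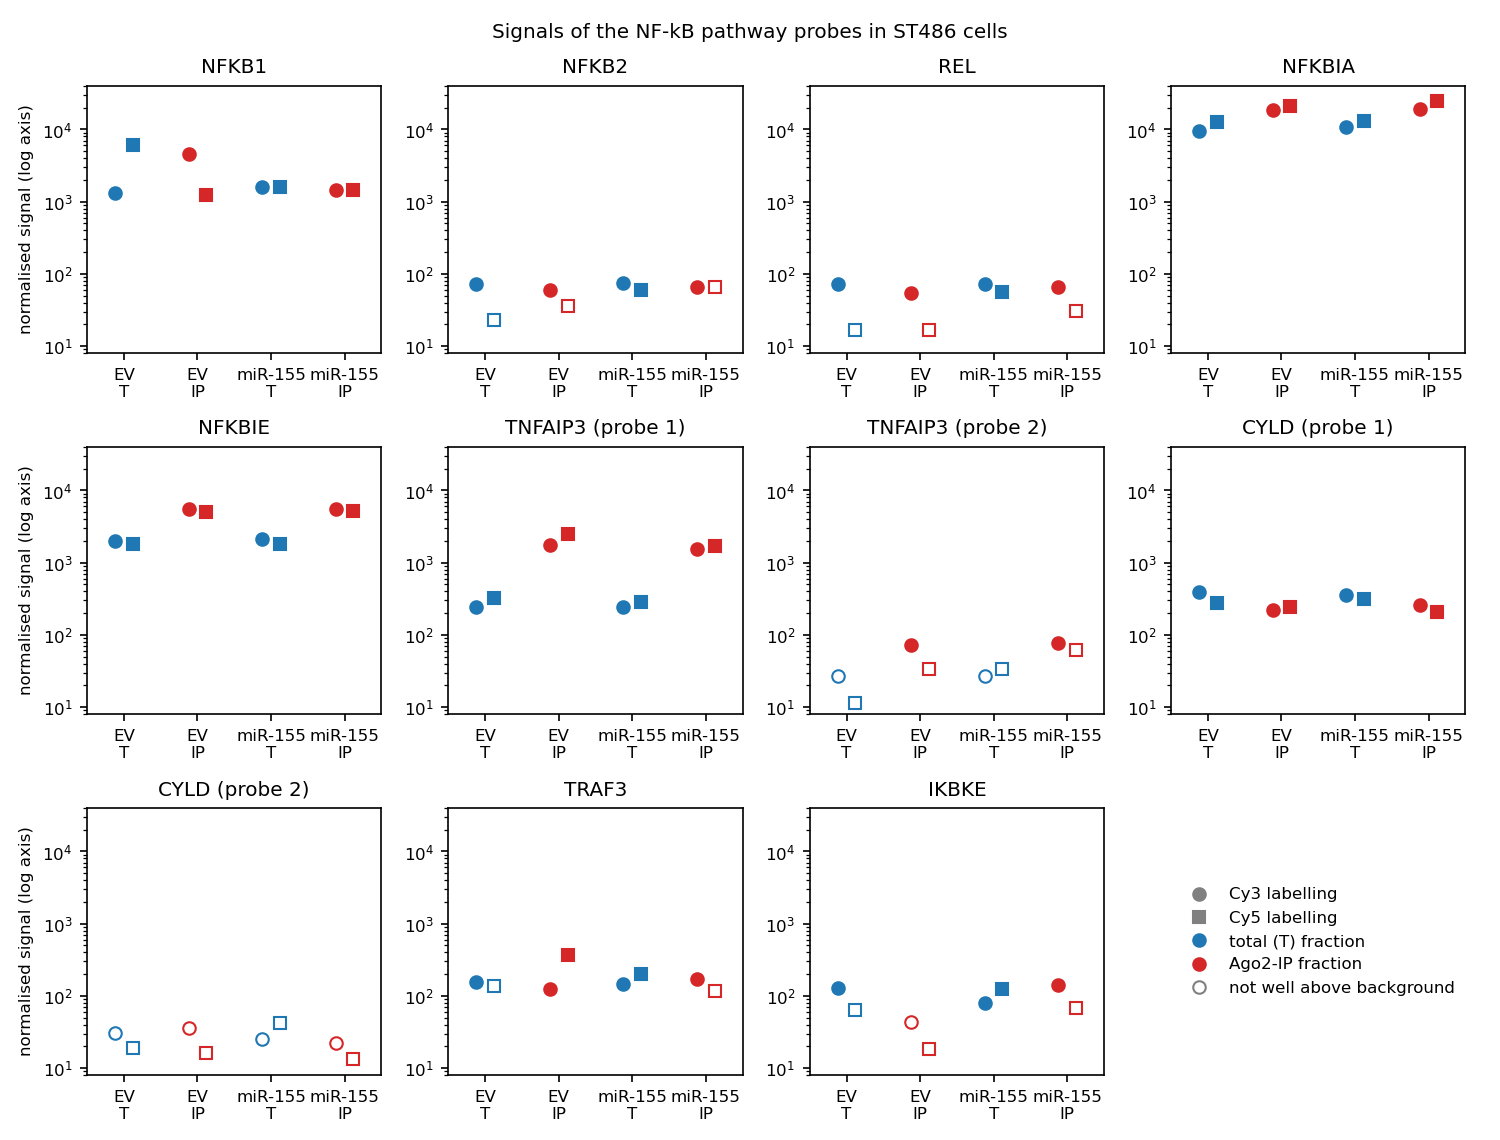
Normalised signals (log axis) of the 11 member probes in the total (T) and Ago2-IP fractions of EV-ST486 and miR-155-ST486, with circles for Cy3 and squares for Cy5. Open symbols were not well above background, and in NFKBIA, NFKBIE and TNFAIP3 (probe 1) both IP signals lie above both total signals in each population. The same order is seen for TNFAIP3 (probe 2), whose total signals are all open symbols.

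Both IkB inhibitors read higher in the Ago2-IP fraction than in the total fraction. NFKBIA encodes IkB-alpha, the inhibitor that NF-kB itself induces most rapidly. Its signal was 9541 (Cy3) and 12830 (Cy5) in the total and 18695 and 21376 in the IP fraction of EV-ST486. In miR-155-ST486 it was 10774 and 13306 in the total and 19265 and 24746 in the IP fraction. Every IP signal lay above every total signal. The IP/T ratio was 1.81 in EV-ST486 (2.24 and 1.46 in the 2 labellings) and 1.82 in miR-155-ST486 (2.30 and 1.45), so that NFKBIA was below the 2-fold threshold in both populations although 85.8% and 85.9% of the kept probes had a lower ratio. Centring each channel on its median in place of quantile normalisation brought the ratios to 2.57 and 2.20.

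NFKBIE, which encodes IkB-epsilon, passed that threshold. Its signal was 2017 and 1797 in the total and 5471 and 5053 in the IP fraction of EV-ST486, and 2136 and 1825 in the total and 5534 and 5267 in the IP fraction of miR-155-ST486. The 4 total signals and the 4 IP signals did not overlap and hardly varied with the dye. IP/T was 2.76 in EV-ST486 (2.51 and 3.05) and 2.73 in miR-155-ST486 (2.47 and 3.03). It fell below 2 only with normexp background correction on the deposited local backgrounds, to 1.72 and 1.60.

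Among the restraints TNFAIP3 had the highest IP/T ratio of the member probes in both populations, except under normexp on the deposited backgrounds, where NFKBIE and NFKBIA were higher. TNFAIP3 encodes A20, a ubiquitin-editing enzyme that shuts off signalling to IKK and is itself an NF-kB target. The signal of its brighter probe was 245 (Cy3) and 320 (Cy5) in the total and 1737 and 2500 in the IP fraction of EV-ST486. In miR-155-ST486 it was 244 and 286 in the total and 1547 and 1711 in the IP fraction. Total signals of the 2 populations overlapped, and each IP signal was several fold above them. The IP/T ratio was 7.44 in EV-ST486 (10.2 and 5.42) and 6.16 in miR-155-ST486 (7.01 and 5.40), a level that 98.3% and 97.8% of the kept probes did not reach. The size of this ratio depended on the background correction, with values of 3.32 and 2.93 under normexp once high local backgrounds had been replaced, and of 1.63 and 1.49 under normexp without that step.

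A second TNFAIP3 probe was near the background. It read 26.8 and 11.3 in the total and 72.6 and 33.3 in the IP fraction of EV-ST486, and 27.0 and 33.6 in the total and 77.7 and 61.3 in the IP fraction of miR-155-ST486. The total signals were not well above background in any channel, and 1 of the 2 IP labellings was in each population. After normexp and loess the IP signal was 1.1-fold above the total in EV-ST486 and 1.19-fold above it in miR-155-ST486. These are measured ratios and not lower bounds. Since 1 of the 2 IP labellings was not detected in each population, no direction is given for this probe.

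The deubiquitinase CYLD, which removes the ubiquitin chains that activate IKK, ran in the opposite direction. Its brighter probe read 391 and 280 in the total and 220 and 239 in the IP fraction of EV-ST486, and 357 and 315 in the total and 257 and 207 in the IP fraction of miR-155-ST486. All IP signals were below all total signals. This gave IP/T ratios of 0.693 in EV-ST486 (0.612 and 0.786) and 0.688 in miR-155-ST486 (0.582 and 0.815), with 28.7% and 29.3% of the kept probes lower. The medians over all kept probes were 0.900 and 0.882. On the log2 scale the CYLD values of -0.53 and -0.54 shrank to -0.083 and -0.098 under normexp. Without quantile normalisation they were -0.13 and -0.32. The other CYLD probe read 13.2 to 42.0 and was well above background in no channel.

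TRAF3 is the adaptor that keeps the kinase NIK at a low level, and thereby the noncanonical branch inactive. Its probe read 158 and 138 in the total and 124 and 363 in the IP fraction of EV-ST486, and 147 and 199 in the total and 170 and 116 in the IP fraction of miR-155-ST486. The Cy5 signal of 363 stood apart from the other 7. With this signal the EV arrays gave IP/T ratios of 2.30 and 0.895, while those of miR-155-ST486 gave 0.791 and 0.854, and the probe was left out by the dye filter.

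The IKBKE probe was dim, and its IP signal was not detected in EV-ST486. IKBKE encodes IKK-epsilon, an IKK-related kinase that has been described elsewhere as a target of miR-155. In EV-ST486 it read 128 (Cy3, detected) and 64.3 (Cy5, not detected) in the total and 43.0 and 18.1 in the IP fraction, neither of them well above background. In miR-155-ST486 it read 78.9 and 125 in the total, both detected, and 140 (detected) and 67.2 (not detected) in the IP fraction. Only the Cy3 IP signal of miR-155-ST486 was detected, so the Cy5 IP signals give no direction. The ratios of the total signals (miR-155-ST486 over EV-ST486) lay on opposite sides of 1, at 0.617 in Cy3 and 1.94 in Cy5, where the EV signal was not detected.

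After normexp and loess the IP signal of IKBKE in EV-ST486 was 1.08-fold below the total of the same cells. It was 1.14-fold below the IP signal of miR-155-ST486. These are measured ratios and not lower bounds, and 1 of the 2 labellings of each brighter signal was not detected, so no direction is given. The IP/T ratio in miR-155-ST486 was 0.979 (0.852 and 1.13). The measured quotient of the IP/T ratios was 6.01 with total RNA in Cy3 and 1.69 with total RNA in Cy5, mean 3.18, and was between 1.05 and 1.17 in the 3 settings with normexp. The probe passed the detection filter with 4 channels but not the dye filter.

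**Figure D3:**
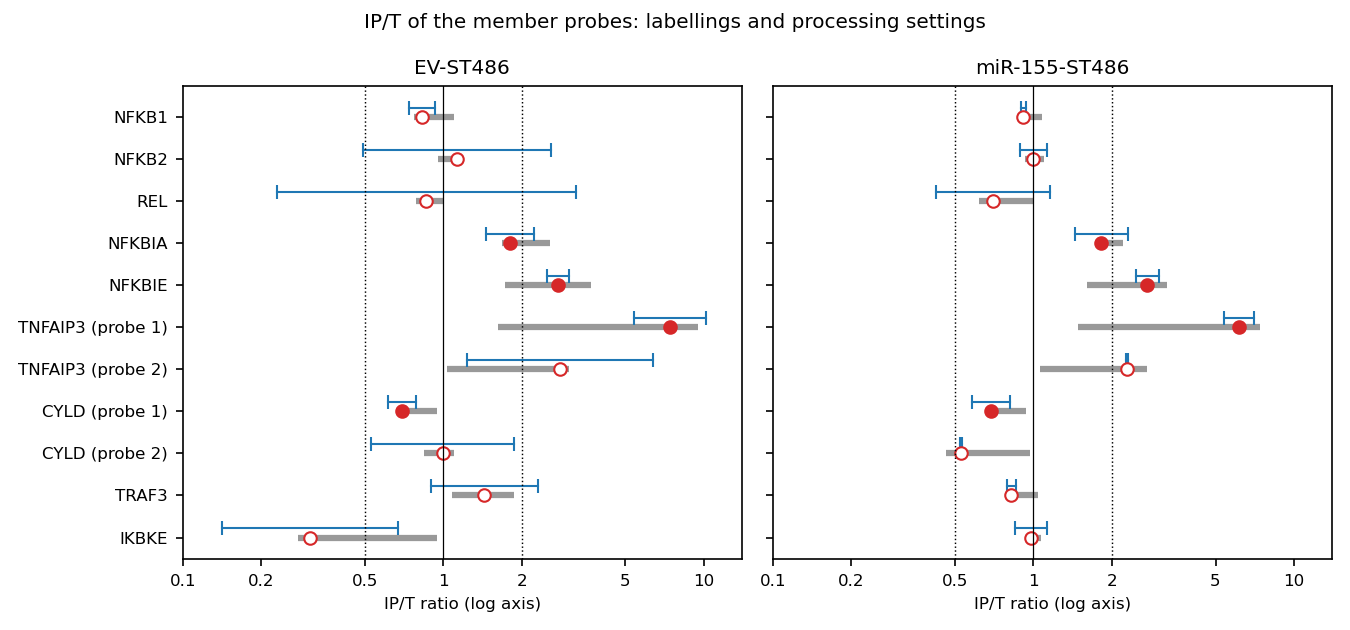
IP/T ratio (log axis) of the 11 member probes in EV-ST486 and miR-155-ST486. Circles give the main value, filled for the 4 kept probes, blue lines join the 2 labellings and grey bars span the lowest to highest value over the processing settings, which is widest for TNFAIP3 (1.63 to 9.54 in EV-ST486).

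Of the 4 member probes that were kept, 2 (NFKBIE and TNFAIP3) were enriched at least 2-fold (IP/T of 2 or more) in EV-ST486 cells and the same 2 in miR-155-ST486 cells, against 12.1% and 12.2% of all kept probes. None had a ratio of at most 0.5, against 10% and 9.83% of all kept probes. The median log2 IP/T of these 4 probes was 1.16 in both populations, against -0.15 and -0.18 over all kept probes. The 7 probes left out by the filters are not part of these counts, and with 9 probes in the fit without the dye filter the medians were 0.18 and -0.03.

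The comparison of the populations asks which transcripts moved to or from the Ago2-IP fraction when miR-155 was added. None of the 4 kept member probes had an IP/T ratio that was 2-fold different between miR-155-ST486 and EV-ST486 (miR-155/EV ratio), against 1.15% of all kept probes with a ratio of at least 2 and 0.477% with a ratio of at most 0.5. The ratio was 1.01 for NFKBIA (1.03 and 0.994 in the 2 labellings), 0.990 for NFKBIE (0.984 and 0.996) and 0.993 for CYLD (0.951 and 1.04). For TNFAIP3 it was 0.828 (0.687 and 0.997), with 20.1% of the kept probes lower. The central 95% of all kept probes ran from 0.613 to 1.68, and all 4 members lay inside it.

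Transcript levels of these genes in the total fraction differed little between the populations. In bulk RNA, fewer expressing cells and less RNA per cell cannot be told apart. The total signal in miR-155-ST486 over that in EV-ST486 was 1.08 for NFKBIA (1.13 and 1.04 in Cy3 and Cy5), 1.04 for NFKBIE (1.06 and 1.02), 1.01 for CYLD (0.912 and 1.12) and 0.943 for TNFAIP3 (0.996 and 0.894). For CYLD the dyes lay on opposite sides of 1. A total signal that was at least 2-fold different either way was seen for 1.06% of all kept probes and for 0 of these 4.

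**Figure D4:**
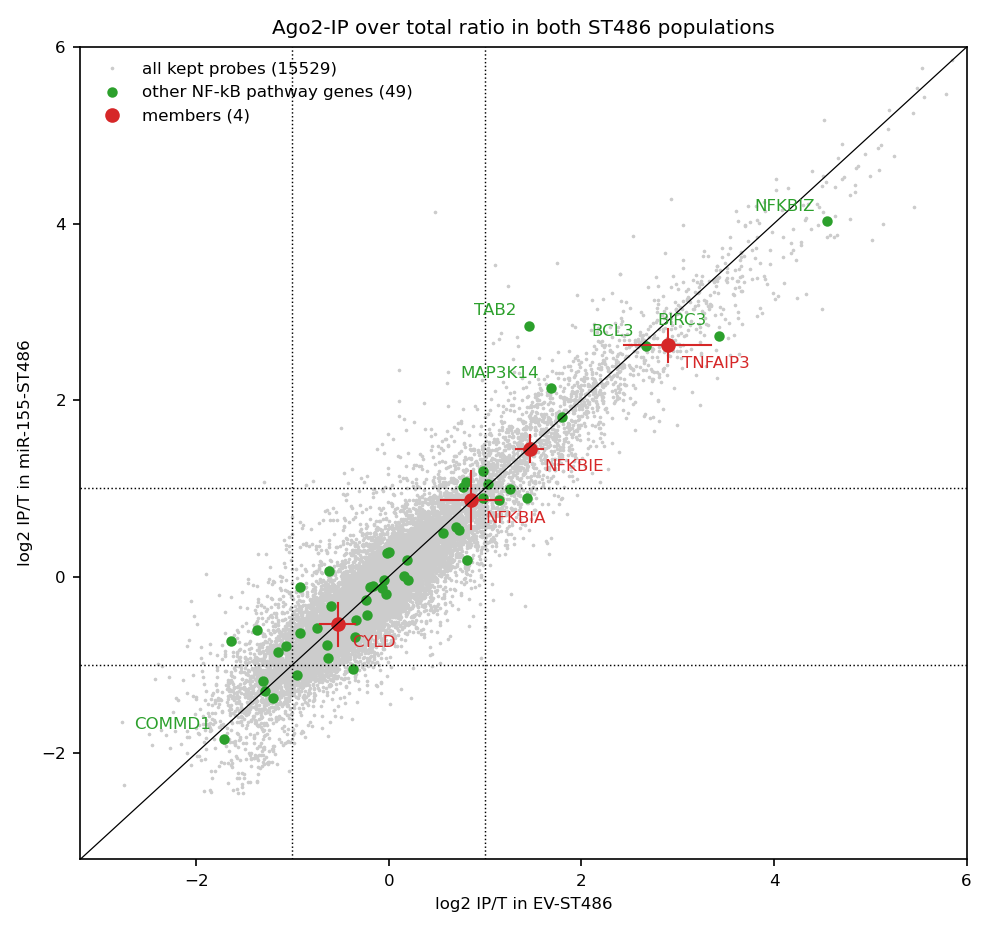
Log2 IP/T ratio in EV-ST486 (x axis) against miR-155-ST486 (y axis) for all 15529 kept probes, 49 probes of other NF-kB pathway genes and the 4 kept member probes, whose bars join the 2 labellings. Dotted lines mark 2-fold, the members lie near the diagonal and TAB2 lies above it.

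The wider pathway was followed with 64 further genes in 6 lists, of which 63 had a probe (CCL3 is not analysed here). Of their 88 probes 49 were kept, for 43 genes. At least 2-fold enrichment was found for 10 of the 49 in EV-ST486 and for 10 in miR-155-ST486, and a ratio of at most 0.5 for 8 and 6. Over all kept probes these shares were 12.1% and 12.2% at or above 2 and 10% and 9.83% at or below 0.5. The median log2 IP/T was -0.05 and -0.04. In both populations and both labellings 6 of the 49 probes (12.2%) were at or above 2, as were 8.20% of all kept probes, and 1 was at or below 0.5, as were 3.13% of all kept probes.

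NFKBIZ had the highest measured IP/T ratio of this wider set, on total signals near the background. It encodes IkB-zeta, a coactivator of secondary NF-kB target genes. Its signal was 29.8 and 18.9 in the total and 477 and 651 in the IP fraction of EV-ST486, and 25.0 and 33.8 in the total and 542 and 416 in the IP fraction of miR-155-ST486. The IP signals were detected in all 4 cases but the total signal in only 1, in EV-ST486. The measured ratio was 23.5 in EV-ST486, where normexp correction gave 1.37 to 2.62. After normexp and loess the IP signal in miR-155-ST486 was 2.53-fold above the total, which was not detected.

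BCL3, another nuclear IkB protein, which binds p50 and p52 homodimers, was well above background in all channels. It read 674 and 615 in the total and 5209 and 3247 in the IP fraction of EV-ST486, and 427 and 420 in the total and 2828 and 2371 in the IP fraction of miR-155-ST486. Its IP/T ratios were 6.39 (4.82 and 8.47) and 6.11 (5.55 and 6.74), and over the settings it ran from 2.17 to 8.45 and from 1.86 to 7.41. RELB, the partner of p52, had ratios of 1.14 in both populations, and NFKBIB, which encodes IkB-beta, had ratios of 0.388 and 0.658. For NFKBIB the IP signal of EV-ST486 was detected in only 1 of the 2 labellings.

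Among adaptors and ubiquitin ligases, BIRC3 had the highest IP/T ratio. BIRC3 encodes cIAP2, which together with TRAF2 and TRAF3 marks NIK for degradation. It read 909 and 600 in the total and 6464 and 9743 in the IP fraction of EV-ST486. In miR-155-ST486 it read 937 and 1218 in the total and 7318 and 6859 in the IP fraction. The IP/T ratio was 10.7 in EV-ST486 (10.7 and 10.8) and 6.63 in miR-155-ST486 (7.32 and 6.01), so that the labellings of the populations did not overlap. Their quotient of 0.617 was nevertheless within the central 95% of all kept probes. Of the 16 kept probes in this list 2 were at or above 2 in EV-ST486 cells and 3 in miR-155-ST486 cells, and 3 and 2 were at or below 0.5, beside 12.1% and 12.2% and 10% and 9.83% of all kept probes.

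TAB2 was the single probe of the 49 whose IP/T ratio was at least 2-fold higher in miR-155-ST486. It encodes an adaptor that brings the kinase TAK1 (MAP3K7) to ubiquitin chains, and it is among the genes that the study listed as miR-155-specific from these same samples, so its direction is not independent evidence. It read 3040 and 3134 in the total and 7989 and 9014 in the IP fraction of EV-ST486, and 2434 and 2775 in the total and 20630 and 16794 in the IP fraction of miR-155-ST486. Both IP signals of miR-155-ST486 were above both of EV-ST486, and both total signals were below. Its IP/T ratio was 2.75 (2.97 and 2.55) for EV-ST486, below the 7.16 (6.90 and 7.43) in miR-155-ST486. The miR-155/EV ratio was 2.61 (2.33 and 2.92), and it stayed between 2.23 and 2.70 over the settings.

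The kinase list as a whole held 11 kept probes, with 4 at or above 2 in EV-ST486 cells and 3 in miR-155-ST486 cells, and 1 at or below 0.5 in each. Over all kept probes 12.1% and 12.2% were at or above 2, and 10% and 9.83% at or below 0.5. MAP3K14 encodes NIK, the kinase that starts the noncanonical branch. It read 352 and 435 in the total and 1356 and 1173 in the IP fraction of EV-ST486, and 427 and 355 in the total and 1685 and 1735 in the IP fraction of miR-155-ST486. Its IP/T ratio was 3.22 (3.33 and 3.12) and 4.39 (4.06 and 4.75), and under normexp without replaced backgrounds it was 1.33 and 1.56, while normexp with loess gave 1.98 and 3.33. IKBKB and CHUK, the catalytic subunits of IKK, had ratios of 1.11 and 0.652 in EV-ST486 and of 1.01 and 1.04 in miR-155-ST486.

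The sixth probe above 2 throughout, named after its values were seen, was 1 of 2 kept probes of the receptor gene TNFRSF1A. It gave 3.49 for EV-ST486 and 3.51 for miR-155-ST486, whereas the other kept probe gave 1.62 and 1.48. Of the 4 kept receptor probes it was the only one at or above 2 (12.1% and 12.2% of all kept probes). In the list of NF-kB target genes 1 of 8 kept probes reached 2 in each population, beside the same shares, JUNB with 2.71 in EV-ST486 and CD83 with 2.11 in miR-155-ST486, both named after their values were seen.

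The list of other restraints held no kept probe at or above 2 and 2 of 6 at or below 0.5 in EV-ST486 (3 of 6 in miR-155-ST486), beside 12.1% and 12.2% above and 10% and 9.83% below over all kept probes. COMMD1, which promotes removal of RELA from chromatin, had the lowest ratio of the 49 probes. The probe concerned read 897 and 715 in the total and 274 and 217 in the IP fraction of EV-ST486, and 800 and 671 in the total and 242 and 173 in the IP fraction of miR-155-ST486. Its IP/T ratio was 0.305 (0.242 and 0.384) and 0.279 (0.216 and 0.361), and the other COMMD1 probe gave 0.517 and 0.463. Normexp correction without replaced backgrounds moved the first probe to 0.752 and 0.796. USP18, a protease that removes ISG15 and dampens TAK1 signalling, was named after its values were seen because its 2 probes were the only ones of the 49 with a total signal at most 0.5 times that of EV-ST486. The ratio of the total signals was 0.480 (0.457 and 0.503) for one probe and 0.457 (0.382 and 0.547) for the other, and that correction brought them to 0.661 and 0.845.

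**Figure D5:**
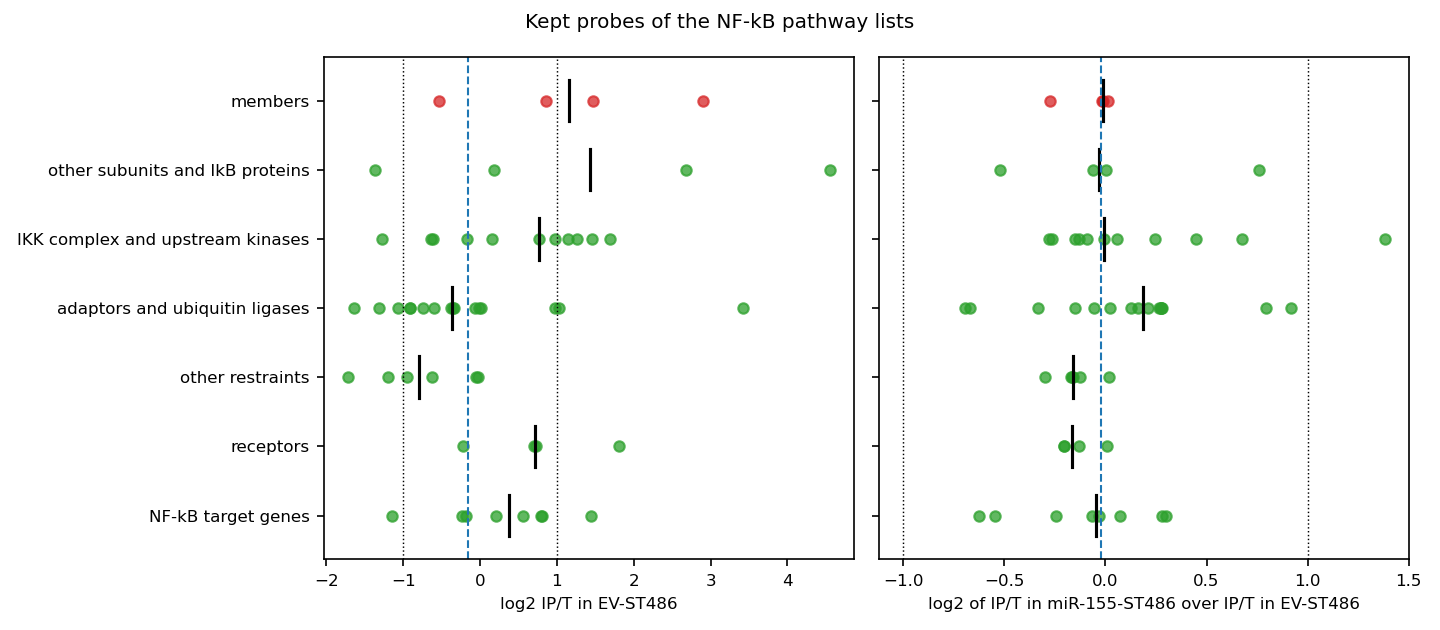
Kept probes of the members and of the 6 pathway lists, with log2 IP/T in EV-ST486 on the left and log2 of the miR-155/EV ratio on the right. Black bars are list medians, the dashed line is the median of all kept probes (-0.15 on the left) and dotted lines mark 2-fold, which on the right 1 probe (TAB2) passed.

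For comparison, the 6 genes that the study tested as miR-155 targets (DET1, TBRG1, TRIM32, HOMEZ, PSIP1 and JARID2) had 11 kept probes. In 8 of them the miR-155/EV ratio was 2 or more, with a median of 4.15 over the 11. At least 1 probe of each of the 6 genes was among the 8, with ratios of 12.6 for DET1, 5.38 for TBRG1, 4.52 and 5.16 for TRIM32, 4.71 and 2.86 for HOMEZ, 4.15 for PSIP1 and 3.02 for JARID2. These genes were chosen on the same arrays, so the count describes the choice and is not independent evidence.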

How the data were processed

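Intensities were deposited per spot as scanner output of 44k whole genome arrays (Agilent Feature Extraction 10.5.1.1, per the submitters' processing notes), with background-subtracted, dye-normalised processed signals. The 4 arrays were each deposited under both channels. The log2 values deposited by the authors had been quantile-normalised in GeneSpring, filtered and are given for 14453 probes, and 99.9% of them lay within 0.05 of the values used here.

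Control spots were left out, spots of a probe were averaged, signals were floored at 1 and the 8 channels were quantile-normalised on the log2 scale. Ratios are differences of the mean log2 signals of both labellings. The filters followed the study's methods but did not give the same probes. They kept 15529, against 14453 in the deposited values, of which 14446 were among those kept here. The NFKB1 probe was in the deposited values but was not kept here. Accessions were matched to symbols through RefSeq for 23958 probes. All member probes were described. Of the other lists the rule named up to 5 kept probes with the highest and 5 with the lowest mean log2 IP/T among those past 2-fold in both populations and labellings, and every kept probe with a miR-155/EV ratio past 2-fold. Members and lists were chosen with earlier results of these data known. With n = 1 RNA per condition no test was run, and the number of arrays limits the precision. Background correction by normexp (offset 50) and loess used limma 3.58.1 under R 4.3.3, and all else was computed with pandas 2.3.3 and numpy 2.4.6 under Python 3.11.15 and drawn with matplotlib 3.10.9. The steps were tested on simulated data with known ratios. Alternatives covered background correction, normalisation, filters, flagged spots, single labellings, the deposited values and other ratio thresholds.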

Additional observations from a re-analysis of the deposited data

Results flagged for a closer look

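Both kept probes of TRIM32, one of the genes that the study tested as miR-155 targets, had IP/T ratios below 1 in both labellings of EV-ST486 and above 1 in both labellings of miR-155-ST486. The difference in log2 IP/T (miR-155-ST486 minus EV-ST486) was 2.18 for one probe and 2.37 for the other. This difference was not tested, as there was 1 RNA sample per condition, and the gene was chosen by the study on these arrays. Among the 49 kept probes of the wider NF-kB pathway the populations also lay on opposite sides of 1 in both labellings for CHUK, with IP/T ratios of 0.932 and 0.457 in EV-ST486 and 1.05 and 1.04 in miR-155-ST486, a log2 difference of 0.68. They did so as well for 1 probe of BCL2A1, an NF-kB target gene of the BCL2 family, with ratios of 1.14 and 1.16 in EV-ST486 and 0.962 and 0.981 in miR-155-ST486, a log2 difference of -0.24. For CHUK the IP signal of EV-ST486 was detected in 1 of the 2 labellings, and the total signals there, 249 and 472, lay 1.90-fold apart. Neither difference, for CHUK or for BCL2A1, was tested. None of the 11 member probes had such a pattern, but only 4 of them passed both filters. A probe whose labellings lay on opposite sides of 1 within a population, as NFKB2 and REL did in EV-ST486, could not show it. The share of all kept probes with this pattern is not given here, so these counts have no background beside them.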

How the results depend on the processing

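The filters decided the member medians. In the 3 settings with normexp, 9 member probes were kept in place of 4, and the median log2 IP/T in EV-ST486 changed sign, to -0.016 (normexp), -0.049 (high backgrounds replaced) and -0.0089 (with loess). In miR-155-ST486 it was -0.0035, -0.012 and 0.053. Over the same 4 probes these medians were 0.72, 1.14 and 1.16 in EV-ST486 and 0.63, 1.06 and 1.14 in miR-155-ST486. Without the dye filter, again with 9 probes, the medians were 0.18 and -0.030, the median of the total signals (miR-155 over EV) was 0.11, and 1 probe (IKBKE) had an IP/T of at most 0.5 in EV-ST486 and a miR-155/EV ratio past 2-fold. Leaving out flagged spots (5 probes, NFKB1 added) gave 0.85 and 0.87 with a total median of 0.050, and the deposited log2 values gave 0.84, 0.86 and 0.054. Without quantile normalisation the medians were 1.62 and 1.42, the miR-155/EV median -0.20 and the total median 0.53, beside 0.46 over all kept probes. The total median was 0.012 and 0.039 under normexp without and with replaced backgrounds, and loess gave a miR-155/EV median of 0.021. The 2 probes with an IP/T of at least 2 became 0 in both populations under normexp alone, and 1 in both at a threshold of 3. Single labellings gave miR-155/EV medians of -0.048 to -0.0054 and total medians of 0.037 to 0.039. Of 378 recomputed ratios of single member probes 0 changed the sign of a value past 2-fold, and 52 moved by more than 1 SD of the labellings. The 378 include the settings that change only the detection or dye filter, which cannot alter the ratio of a single probe. Where labellings lay far apart even a large change was not counted as moved. For the second TNFAIP3 probe in EV-ST486 log2 IP/T went from 1.49 to 0.054 under normexp. Ratios of dim probes rest on the background correction, and 1 RNA sample per condition leaves the spread between cultures unknown.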
